A study of Mus musculus with 59 samples.

Results

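Cortex of mice that carry 1 expanded *Atxn1* allele was compared with cortex of wild-type mice by polyA RNA-seq. The 8 libraries were taken by their sample labels, of 59 libraries in the whole series: 4 of WT cortex and 4 of cortex from *Atxn1* 154Q/2Q mice, called 154Q here. Both groups were mice labelled C57BL/6 (C57BL/6J in the methods of the study) and aged 10 weeks. By the labels, each library is the cortex of 1 mouse, and the 8 mice also gave cerebellum, brainstem, hippocampus and striatum. The 154Q allele is a knock-in at the mouse gene, so the expanded protein is made from its own promoter, on top of 1 normal allele, in every cell that uses the gene. Another genotype, 154Q-AXH, with the same expansion and changes in the AXH domain, entered the fit only to help estimate the spread (4 cortical libraries).

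Ataxin-1 is a nuclear protein that represses transcription, chiefly in a complex with Capicua (Cic), which binds short DNA octamers near its target genes. Expansion of its polyglutamine tract causes spinocerebellar ataxia type 1, in which Purkinje cells of the cerebellum and neurons of the brainstem degenerate. The cortex is built of excitatory projection neurons in layers, several classes of inhibitory interneurons that release GABA and neuropeptides, and astrocytes, oligodendrocytes and microglia. In bulk tissue, fewer cells of a type and less RNA per cell cannot be told apart.

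The 8 libraries held 34.9 to 46.2 M read pairs counted on genes, and 78.8% to 81.1% of read pairs were counted. Counts are given as CPM, which are read counts scaled to a common library size (TMM). The first principal component separated all WT from all 154Q libraries and held 28.1% of the variance, and 154Q-75 stood apart on the second component, which held 19.5%. Several libraries raise doubts about their labels. The files of 154Q-76 and 154Q-AXH-207 have exchanged names. WT-221 and 154Q-75 held *Xist*, which is made from the inactive X chromosome, at 470.0 and 448.2 CPM, where the other 6 cortical libraries held at most 4.43 CPM. 154Q-75 did so in all 5 regions but WT-221 in its cortex only, so that cortical library went against the other regions of its mouse. *Ddx3y*, on the Y chromosome, was at 0.90 CPM in WT-221 and 0.70 CPM in 154Q-75, against 63.5 to 79.7 CPM in the other 6. The *Ddx3y* log2 CPM of WT-221 was -0.10 in cortex and 6.17 to 7.3 in its other regions. Mouse numbers fall into a lower series of 2 digits and a higher series of 3 digits. All 154Q mice are in the lower series, and the WT mice are divided, 2 in each. What the series stands for is not given in the labels, and counts of a fit with the series as a covariate are given where they differ by more than 1.5 times.

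Of 18610 genes tested, 2066 were differentially expressed genes (DEGs) at an adjusted p under 0.05 (11.1%; edgeR quasi-likelihood test), of which 818 were raised (4.4%) and 1248 lowered (6.71%) in 154Q cortex. Most changes were small. The median absolute log2 fold change was 0.30 among raised and 0.40 among lowered DEGs, and a change of 1 or more was seen in 49 raised and 172 lowered DEGs. A test against a fold of 1.2 called 372 genes (2%), 67 raised (0.36%) and 305 lowered (1.64%), and 4.76% and 0.425% of genes passed against folds of 1.1 and 1.5. All 4 154Q libraries lay above the WT libraries for 6.73% of all genes and below them for 8.01%, and this held for 702 raised and 1082 lowered DEGs. Of the 3722 genes with the lowest CPM 3.41% were called (43 raised, 84 lowered), and of the 3722 with the highest CPM 19.6% (211 raised, 518 lowered). Without 154Q-76, 2016 genes were called (805 raised, 1211 lowered), of which 1727 were also called with it. With the series as a covariate the number was 797 (195 raised, 602 lowered), of which 780 were among the 2066. The gene lists used below were chosen with earlier results of these data known. Their shares beside those of all genes describe the lists and do not test them. A share of lowered members stands beside 6.71%, and a share of raised members beside 4.4%. Those shares of all genes are not matched to the CPM of a list, and genes of higher CPM were called more often.

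*Atxn1* itself was at 44.3, 47.2, 51.1 and 48.2 CPM in WT and 47.6, 57.1, 50.3 and 54.5 CPM in 154Q cortex, and these ranges overlapped (log2 fold change 0.13 ± 0.063 SE, adjusted p = 0.199). The counts do not separate the expanded from the normal allele. Its paralog *Atxn1l* (log2 fold change 0.15, adjusted p = 0.0849), *Cic* (0.07, adjusted p = 0.46) and *Rfx1* (0.21, adjusted p = 0.273) did not pass the test. Of 14 tested members of a list of *Atxn1* and partner factors, 1 was raised (7.14%, against 4.4% of all genes) and none was lowered. The raised gene was *Hdac3*, a histone deacetylase (log2 fold change 0.17 ± 0.048, adjusted p = 0.0371). The *Hdac3* groups overlapped, and it kept its call in 9 of 24 alternative fits, losing it with the series as a covariate and without WT-70, WT-220, WT-221, 154Q-69, 154Q-71, 154Q-76 or 154Q-AXH-207; without 154Q-75, 1 gene of the list was lowered. Within 10 Mb of *Atxn1*, 24 of 161 tested genes were DEGs (14.9%, against 11.1% of all genes).

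The lowered genes with the lowest p were of several kinds. *Plk5*, a polo-like kinase without mitotic role in neurons, fell from 23.6, 16.03, 12.6 and 16.02 CPM in WT to 2.89, 2.64, 2.85 and 2.18 CPM in 154Q cortex (log2 fold change -2.69 ± 0.188, adjusted p = 1.71e-06). *Gsg1l*, an auxiliary subunit of AMPA receptors, fell from 114.6, 106.9, 93.3 and 105.1 CPM to 51.5, 41.7, 48.9 and 51.4 CPM (-1.12 ± 0.083, adjusted p = 2.44e-06). *Pdp1*, a phosphatase that activates pyruvate dehydrogenase, fell from 163.2–207.1 CPM in WT to 86.3–107.5 CPM in 154Q cortex (-0.99 ± 0.082). In all 3 the highest 154Q library was below the lowest WT library, which was a condition of their choice and not a further result. Also chosen in this way were *Lzts3* (-0.68 ± 0.048), *Klf10* (-0.95 ± 0.073), *Ankrd33b* (-0.80 ± 0.062), *Grm4* (-0.91 ± 0.072) and *Gpd1*, the cytosolic glycerol-3-phosphate dehydrogenase (-0.98 ± 0.082). Among the largest decreases were *Gm765* (-3.22 ± 0.326), *Cd6* (-2.68 ± 0.332) and the muscle-type genes *Tnnc1* (-2.31 ± 0.289) and *Myl4* (-1.84 ± 0.15).

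Among raised genes, *Onecut2*, a homeodomain transcription factor, rose from 2.21, 1.29, 1.79 and 1.67 CPM in WT to 11.97, 11.4, 8.40 and 5.82 CPM in 154Q cortex (log2 fold change 2.44 ± 0.224, adjusted p = 1.09e-05). *Sfmbt2*, a Polycomb group protein, rose from 2.36, 2.57, 3.27 and 3.03 CPM to 6.20, 6.15, 6.92 and 5.72 CPM (1.14 ± 0.117, adjusted p = 2.91e-05). *Scn3a*, a sodium channel that is most abundant before birth, rose from 35.1, 36.8, 36.8 and 37.8 CPM to 57.8, 55.9, 49.6 and 47.8 CPM (0.53 ± 0.067, adjusted p = 0.000163). No 154Q library reached down to a WT library in these genes, which for *Onecut2* and *Sfmbt2* was a condition of their choice. Smaller increases were seen in *Srsf12*, a splicing factor (0.53 ± 0.058), *Dock9* (0.47 ± 0.054), *Psme1*, a proteasome activator subunit (0.50 ± 0.058), *Asl*, of the urea cycle (0.67 ± 0.078), and *Usp11*, a deubiquitinase (0.48 ± 0.057). Large log2 fold changes were also seen in 3 transcription factor genes of low level, *Pou4f1* (3.69 ± 0.599), *Twist1* (1.98 ± 0.356) and *Tal1* (1.66 ± 0.312). Their 154Q libraries varied widely, from 0.632 to 3.69 CPM for *Pou4f1* and from 4.06 to 10.1 CPM for *Tal1*, of which 154Q-75 held the most in both.

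**Figure D1:**
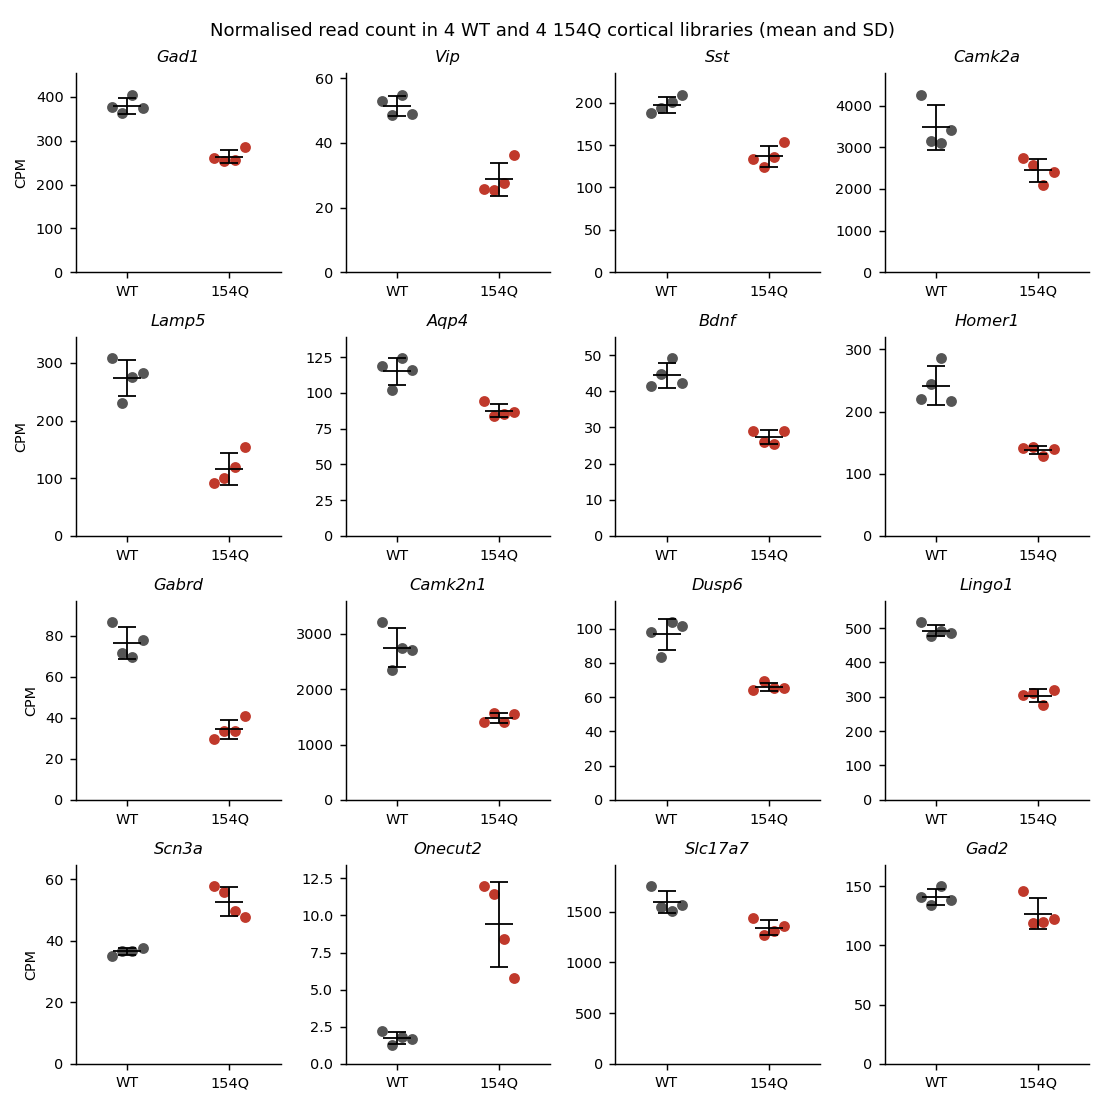
Normalised read count (CPM, vertical axis from 0) of 16 genes in the 4 WT and 4 154Q cortical libraries, 1 point a library, with the mean and SD in black. *Gad1*, *Vip*, *Homer1*, *Lingo1* and most others are lower in every 154Q library, *Scn3a* and *Onecut2* are higher, and *Gad2* overlaps between the groups.

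Markers of large classes of cortical interneuron were lowered, but many other interneuron genes were not called. Of 31 tested interneuron genes, 14 were lowered (45.2%, against 6.71% of all genes), none was raised and 17 were not called. The median log2 fold change was -0.24, and that of *Slc32a1*, also of this list, was 0.001 ± 0.051 (adjusted p = 0.995). *Gad1*, which makes most of the GABA in the brain, fell from 377.0, 362.7, 405.6 and 375.0 CPM in WT to 259.9, 253.1, 256.5 and 285.4 CPM in 154Q cortex (-0.53 ± 0.049, adjusted p = 1.13e-05). Its sister enzyme *Gad2* was at 133.8 to 150.0 CPM in WT and 119.2 to 146.2 CPM in 154Q cortex (-0.15 ± 0.061, adjusted p = 0.14), with 154Q-69 alone inside the WT range. The markers of the large interneuron classes are *Vip*, *Sst* and *Pvalb*. *Vip* fell from 52.9, 48.8, 55.0 and 48.9 CPM to 25.8, 25.3, 27.7 and 36.4 CPM (-0.83 ± 0.094, adjusted p = 6.28e-05), *Sst* from 187.7–209.6 CPM to 124.5–153.2 CPM (-0.53 ± 0.066, adjusted p = 0.000127), and *Pvalb* from 72.2–81.6 CPM to 43.5–63.8 CPM (-0.58 ± 0.12, adjusted p = 0.00606). *Kcnc1*, the fast potassium channel of *Pvalb* cells, was also lowered (-0.55 ± 0.066, adjusted p = 9.42e-05). Leaving out each library gave 11 to 15 lowered interneuron genes, 7 with the series as a covariate, and 1 was raised without 154Q-76.

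Of 14 tested excitatory neuron genes, 4 were lowered (28.6%, against 6.71% of all genes) and 1 raised (7.14%, against 4.4%), with a median of -0.10. *Slc17a7*, the vesicular glutamate transporter of cortical projection neurons, was at 1752, 1544, 1505 and 1569 CPM in WT and 1436, 1273, 1306 and 1359 CPM in 154Q cortex (-0.24 ± 0.058, adjusted p = 0.0137). *Camk2a*, the kinase of excitatory synapses, fell from 3111–4272 CPM to 2092–2739 CPM (-0.51 ± 0.098, adjusted p = 0.00365). Among layer genes, 5 of 14 of upper layers (35.7%) and 6 of 19 of deep layers (31.6%) were lowered, against 6.71% of all genes, and none was raised. *Lamp5*, of upper layer neurons and a class of interneurons, had the largest decrease of the upper layer list, from 307.8, 231.1, 274.9 and 281.9 CPM to 91.9, 99.6, 119.7 and 154.7 CPM (-1.23 ± 0.15, adjusted p = 0.000118). In the deep layers, *Ccn2*, of the subplate-derived layer 6b (-0.85 ± 0.162), *Etv1*, of layer 5 (-0.49 ± 0.103), and *Bcl11b*, of subcerebral projection neurons (-0.30 ± 0.064), were lowered. The upper layer count was 3 without 154Q-69 and 3 with the series as a covariate, where the deep layer count was 2. The raised excitatory count was 0 with that covariate and without WT-77, WT-220, WT-221, any 1 of the 4 154Q libraries, 154Q-AXH-207 or 154Q-AXH-209, and 2 without WT-70 or with DESeq2.

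Neuropeptides and secreted factors had the highest share of lowered genes of the lists examined: 22 of 31 were lowered (71%), none was raised, and the median log2 fold change was -0.53. This list shares *Sst*, *Vip*, *Npy*, *Cck* and *Crh* with the interneuron list. It was chosen with earlier results of these data known, so its rank is no test. *Rspo1*, an activator of Wnt signalling, fell from 16.6, 12.4, 17.9 and 20.6 CPM to 2.72, 4.70, 4.13 and 7.25 CPM (-1.83 ± 0.229, adjusted p = 0.000152), and *Crhbp*, which binds corticotropin-releasing hormone, from 26.8–29.8 CPM to 17.9–21.9 CPM (-0.51 ± 0.066). Leaving out each library gave 16 to 23 lowered genes, and 11 were lowered with the series as a covariate; 1 was raised without WT-221 or with DESeq2.

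**Figure D2:**
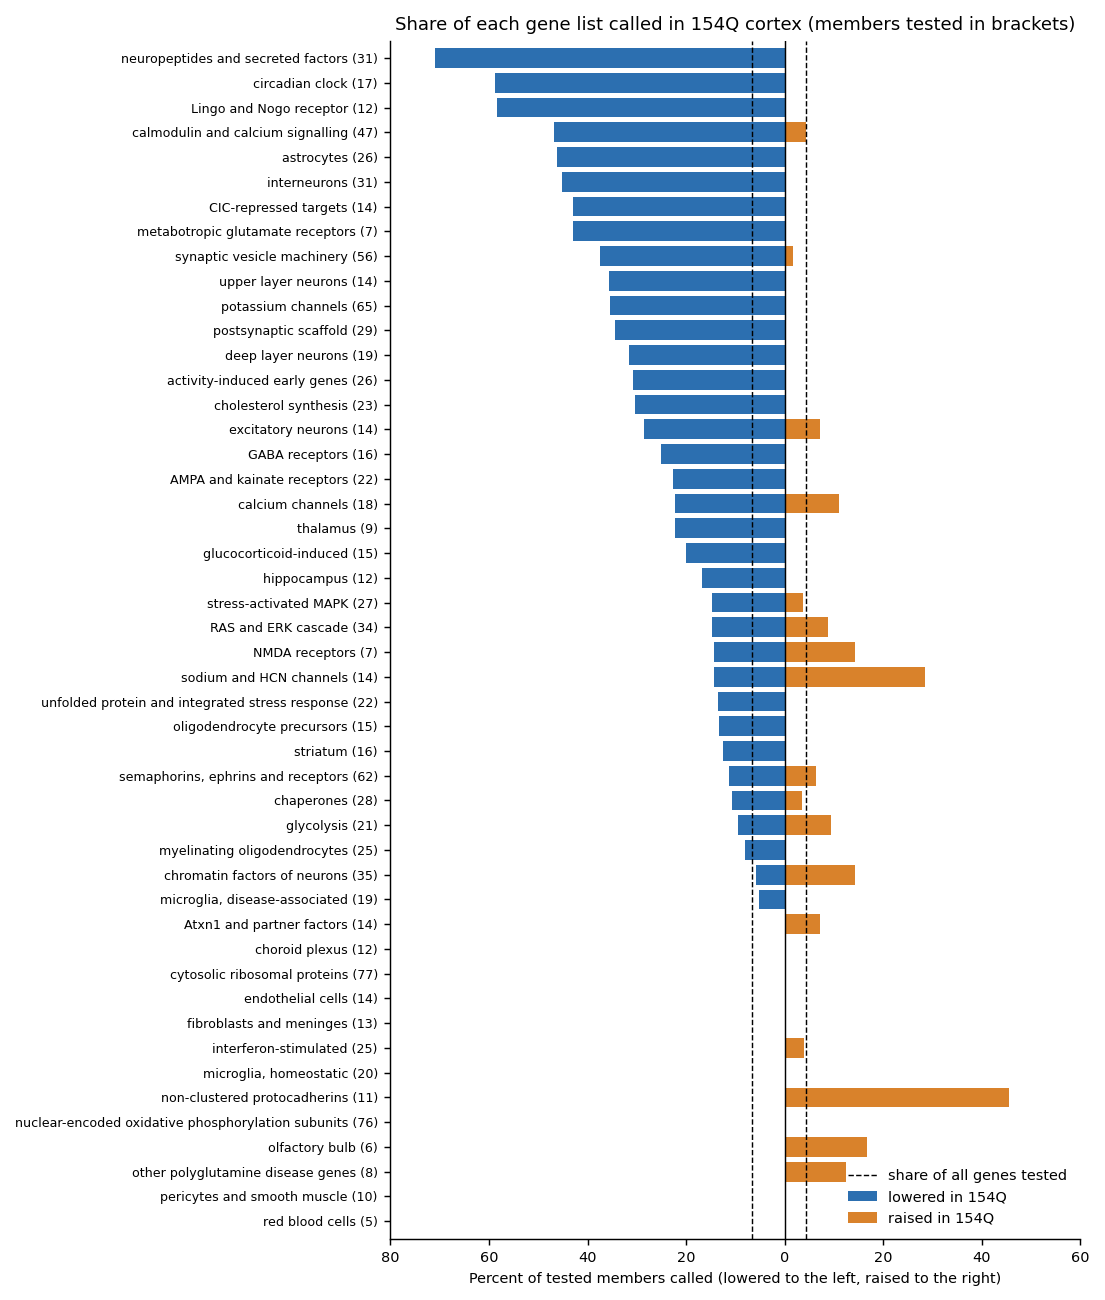
Percent of the tested members of 48 gene lists that were lowered (blue, to the left) or raised (orange, to the right) in 154Q cortex, with the share of all 18610 genes tested as dashed lines (6.71% lowered, 4.4% raised). Neuropeptides (71%), clock genes (58.8%) and Lingo and Nogo receptor genes (58.3%) reach farthest to the left, and the non-clustered protocadherins farthest to the right. The lists were chosen with earlier results of these data known.

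Among glial genes, astrocyte markers had the most calls. Of 26 tested astrocyte genes, 12 were lowered (46.2%) and none raised, with a median of -0.21. *Aqp4*, the water channel of astrocyte endfeet, fell from 118.8, 102.1, 124.1 and 115.7 CPM to 94.5, 83.7, 85.5 and 86.9 CPM (-0.40 ± 0.061, adjusted p = 0.000781), and *Gfap*, the intermediate filament that rises in reactive astrocytes, from 216.9–290.2 CPM to 126.7–181.8 CPM (-0.56 ± 0.169, adjusted p = 0.0424). *Gfap* kept its call in 11 of 24 alternative fits and lost it with the series as a covariate. Smaller decreases were seen in *Atp1b2* (-0.24 ± 0.041), *Aldoc* (-0.21 ± 0.046) and *S100b* (-0.29 ± 0.063). The astrocyte count was 7 without WT-220 and 4 with the series as a covariate. All 25 myelinating oligodendrocyte genes had a log2 fold change below 0 (median -0.24), but 2 were called (8% lowered, against 6.71% of all genes). They were *Fa2h*, which makes hydroxylated myelin lipids (-0.36 ± 0.087), and *Olig1* (-0.21 ± 0.053). *Mbp*, a main protein of myelin, did not pass (-0.24 ± 0.104, adjusted p = 0.153) and overlapped between the groups. This count rested on single libraries: it was 9 without 154Q-76, 7 without WT-70, 5 without WT-77, 4 without 154Q-71, 1 without 154Q-69 or 154Q-75, 0 without WT-220 or WT-221, 0 with the series as a covariate and 8 with DESeq2. Of 15 genes of oligodendrocyte precursors, 2 were lowered (13.3%, against 6.71% of all genes), *Neu4* (-0.34 ± 0.078) and *Bcas1* (-0.33 ± 0.084). *Pdgfra* did not pass (-0.12 ± 0.073, adjusted p = 0.358). The precursor count was 1 without WT-220, WT-221, 154Q-69 or 154Q-75 and 0 with the series as a covariate.

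None of 20 homeostatic microglial genes was called by edgeR (median 0.09), 2 had an unadjusted p under 0.05, and DESeq2 called 0. Without 154Q-75, 4 of them were raised. *Tmem119* was at 22.4 to 31.1 CPM in WT and 24.4 to 30.2 CPM in 154Q cortex (0.04 ± 0.092, adjusted p = 0.819), and *P2ry12* was at 33.4 to 42.4 and 32.3 to 43.6 CPM (0.09 ± 0.087, adjusted p = 0.561). Of 19 genes of disease-associated microglia, 1 was lowered (5.26%, against 6.71% of all genes) and none was raised. The lowered gene was *Lpl*, a lipase that neurons also make (-0.76 ± 0.131, adjusted p = 0.00179). None of 14 endothelial genes, 10 of pericytes and smooth muscle, 13 of fibroblasts and 5 of red blood cells was called by edgeR or DESeq2, and at an unadjusted p under 0.05 these lists held 0, 0, 0 and 3 genes. Without WT-221, whose *Xist* level went against its mouse, 3 of the 5 red blood cell genes were lowered. *Cldn5*, of the tight junctions of the blood-brain barrier, had a log2 fold change of -0.21 ± 0.114 (adjusted p = 0.272).

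**Figure D3:**
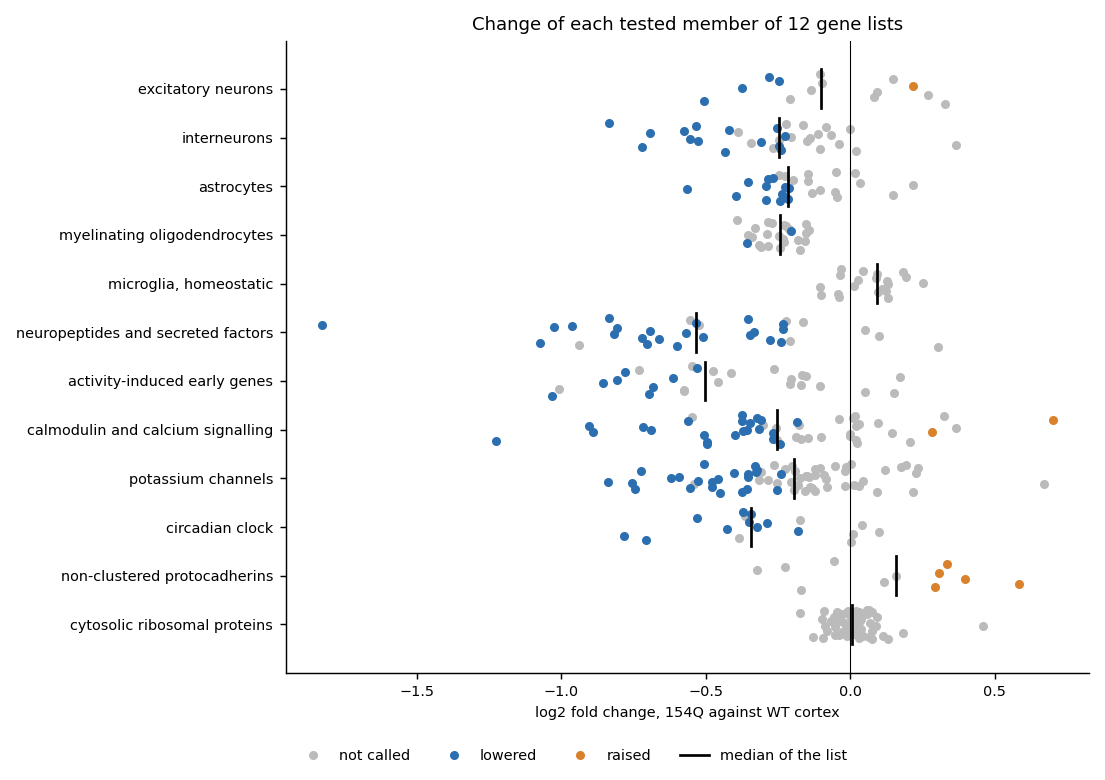
Log2 fold change (horizontal axis, 154Q against WT) of each tested member of 12 gene lists, 1 point a gene, coloured by call, with the median of the list as a black line. Neuropeptides and early genes lie farthest to the left (medians -0.53 and -0.50), and ribosomal proteins lie around 0 with no gene called.

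Of the genes that Cic is known to repress, those called were all lowered. Of 14 tested, 6 were lowered (42.9%), none was raised, and 13 had a log2 fold change below 0 (median -0.19). The other 8 were not called, among them *Etv4* (-0.13 ± 0.107, adjusted p = 0.474) and *Spry4* (-0.20 ± 0.114, adjusted p = 0.306). *Dusp6*, a phosphatase that shuts off ERK, fell from 98.3, 83.7, 103.7 and 101.7 CPM in WT to 64.2, 69.5, 65.4 and 65.5 CPM in 154Q cortex (-0.55 ± 0.079, adjusted p = 0.000421). *Etv5* (-0.36 ± 0.063), *Dusp4* (-0.84 ± 0.15) and *Etv1* (-0.49 ± 0.103) were also lowered, *Etv5* and *Etv1* being ETS transcription factors downstream of ERK. These genes are induced by ERK signalling as well. Of 34 genes of the RAS and ERK cascade, 3 were raised (8.82%, against 4.4% of all genes) and 5 lowered (14.7%, against 6.71%). *Mapk3*, which encodes ERK1, rose from 113.8–156.6 CPM to 172.8–204.2 CPM (0.47 ± 0.095, adjusted p = 0.00483), and *Nf1*, which turns RAS off, was raised (0.21 ± 0.053). The exchange factors *Rasgrf2* (-0.40 ± 0.075) and *Rasgrp1* (-0.33 ± 0.068) were lowered. The Cic target count was 3, and the RAS and ERK counts were 0 raised and 2 lowered, with the series as a covariate. Of 27 genes of stress-activated MAPK signalling, 1 was raised (3.7%, against 4.4% of all genes), *Mapk8ip2*, a JNK scaffold (0.21 ± 0.046). In this list 4 were lowered (14.8%, against 6.71%), *Gadd45a* by the most (-0.98 ± 0.162). With the series as a covariate 0 were raised and 2 lowered. In the RAS and ERK list, 1 gene was raised without WT-221 or 154Q-69, and 2 or 3 were lowered without WT-70, WT-77, WT-220, WT-221, 154Q-69 or 154Q-75.

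Promoter windows of 4 lowered genes are printed because each holds a known motif of the group that it belongs to. They are RefSeq windows of GRCm38.p6, from 250 bases before to 50 bases after a gene start, 5′ to 3′ on the strand of the gene, with the motif in capitals. The motifs were searched on both strands: the Cic octamers TGAATGAA, TGAATGGA, TCAATGAA and TCAATGGA, the E-box CACGTG, which clock factors bind, and the cyclic AMP response element TGACGTCA (CRE). Motifs of different kinds overlapped in 4 of 32851 windows. The window of *Dusp6* is chr10:99262981-99263280 (plus strand), that of *Ciart* chr3:95882179-95882478 (minus strand), that of *Tef* chr15:81811164-81811463 (plus strand, 1 of 2 windows) and that of *Sst* chr16:23890795-23891094 (minus strand).
Dusp6: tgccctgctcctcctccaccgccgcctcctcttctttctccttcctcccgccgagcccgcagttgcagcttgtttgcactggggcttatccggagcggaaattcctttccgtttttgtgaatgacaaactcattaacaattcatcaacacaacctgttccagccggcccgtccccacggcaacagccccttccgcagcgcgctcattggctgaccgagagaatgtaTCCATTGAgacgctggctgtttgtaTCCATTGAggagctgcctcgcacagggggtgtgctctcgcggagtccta
Ciart: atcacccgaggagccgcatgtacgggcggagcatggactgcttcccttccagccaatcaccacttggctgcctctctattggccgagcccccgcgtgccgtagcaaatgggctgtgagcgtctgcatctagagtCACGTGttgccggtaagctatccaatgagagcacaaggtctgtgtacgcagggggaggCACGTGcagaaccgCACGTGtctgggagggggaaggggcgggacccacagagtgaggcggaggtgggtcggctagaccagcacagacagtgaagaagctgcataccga
Tef: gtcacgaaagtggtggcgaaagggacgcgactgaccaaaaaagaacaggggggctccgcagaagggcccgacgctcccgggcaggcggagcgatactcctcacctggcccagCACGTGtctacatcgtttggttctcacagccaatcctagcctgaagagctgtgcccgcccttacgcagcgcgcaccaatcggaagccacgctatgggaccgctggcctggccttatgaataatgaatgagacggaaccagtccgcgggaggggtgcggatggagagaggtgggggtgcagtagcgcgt
Sst: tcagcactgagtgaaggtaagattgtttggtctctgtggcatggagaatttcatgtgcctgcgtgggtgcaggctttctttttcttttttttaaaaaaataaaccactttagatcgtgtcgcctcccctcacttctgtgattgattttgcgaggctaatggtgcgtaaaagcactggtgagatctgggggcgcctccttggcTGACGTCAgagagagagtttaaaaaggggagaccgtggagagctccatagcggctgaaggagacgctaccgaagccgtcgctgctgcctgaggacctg

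The window of *Dusp6* held 2 octamers, both as the reverse complement TCCATTGA. Windows were at hand for 12812 of the 18610 genes tested. A Cic octamer stood in 2.7% of the windows of lowered genes and 2.99% of those of raised genes, against 2.58% of the windows of all tested genes. Of the 9 Cic targets with a window, 3 held an octamer (*Dusp6*, *Spred3* and *Spry2*), and of these *Dusp6* was lowered. The E-box stood in 7.71%, 11.3% and 9.17% of these windows, and the CRE in 2.31%, 2.16% and 2.72%. The shares of the 3 motifs among DEGs were thus near those of all tested genes, and a match is a run of letters, not a measured binding site.

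Of genes that neuronal activity induces, those called were all lowered. Of 26 tested, 8 were lowered (30.8%), none was raised, and the median log2 fold change was -0.50. *Bdnf*, a growth factor that synaptic activity induces, fell from 41.4, 44.8, 49.1 and 42.2 CPM to 29.0, 26.1, 25.6 and 29.0 CPM (-0.70 ± 0.066, adjusted p = 1.46e-05). *Homer1*, whose short form is induced by activity, fell from 220.3, 244.3, 285.6 and 217.1 CPM to 141.6, 142.6, 129.3 and 139.1 CPM (-0.81 ± 0.091, adjusted p = 6.23e-05). *Ier5* (-0.61 ± 0.076) and *Nptx2*, a pentraxin that gathers AMPA receptors (-0.78 ± 0.132), were also lowered. The count was 14 without 154Q-71, but 6 without WT-220 or 154Q-69 and 6 with the series as a covariate. Of 17 clock genes, 10 were lowered (58.8%) and none raised (median -0.34). *Bhlhe40*, a repressor in the clock, fell from 130.4–185.1 CPM to 90.7–105.9 CPM (-0.71 ± 0.099, adjusted p = 0.000357), *Ciart*, a repressor whose window above holds 3 E-boxes, from 17.8–20.3 CPM to 7.94–13.9 CPM (-0.78 ± 0.129), and *Tef*, an output factor of the clock, from 385.4–455.3 CPM to 300.3–356.2 CPM (-0.37 ± 0.062). The time of day at which each mouse was killed is not given in the labels. The clock count was 6 without WT-220, 154Q-69 or 154Q-75 and 5 with the series as a covariate.

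At the synapse, some receptor genes of both transmitters were lowered, but most receptor genes were not called. The lowered shares were 25% of GABA, 22.7% of AMPA and kainate, 14.3% of NMDA and 42.9% of metabotropic glutamate receptor genes. Of all genes 6.71% were lowered. The raised share of NMDA receptor genes was 14.3%, against 4.4% of all genes. *Gabrd*, the delta subunit of GABA-A receptors outside the synapse, fell from 86.6, 71.7, 69.7 and 78.2 CPM to 29.6, 33.6, 33.6 and 41.0 CPM (-1.15 ± 0.114, adjusted p = 2.28e-05), the largest decrease among the 4 of 16 GABA receptor genes that were lowered. *Gabbr2*, a subunit of the GABA-B receptor, was lowered too (-0.22 ± 0.063, adjusted p = 0.0356), a call kept in 12 of 24 alternative fits. The lowered GABA receptor count was 1 without WT-70 or 154Q-71 and with the series as a covariate, and 2 without WT-220, WT-221 or 154Q-69. No GABA receptor gene was raised, but 2 were with DESeq2 or without 154Q-AXH-218, and 1 was without WT-70, 154Q-71, 154Q-75 or 154Q-76. Of 22 AMPA and kainate receptor genes, 5 were lowered, among them *Gria4* (-0.36 ± 0.05) and the auxiliary subunits *Cacng3* (-0.30 ± 0.05) and *Neto2* (-0.52 ± 0.095). Of 7 NMDA receptor genes, *Grin2a*, the subunit that gains with age, was lowered (-0.52 ± 0.068, adjusted p = 0.000199), and *Grin2d*, more abundant early in life, was raised (0.41 ± 0.09, adjusted p = 0.00816). Of 7 metabotropic glutamate receptors, *Grm4*, *Grm2* (-0.81 ± 0.093) and *Grm3* (-0.45 ± 0.074) were lowered.

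Postsynaptic scaffold genes were lowered in 10 of 29 cases (34.5%, against 6.71% of all genes) and raised in none. They included *Kalrn*, an exchange factor of dendritic spines, which fell from 739.0–878.7 CPM to 518.3–592.3 CPM (-0.52 ± 0.06, adjusted p = 7.34e-05), *Dlgap1* (-0.35 ± 0.045) and *Git1* (-0.49 ± 0.08). Of 56 genes of the synaptic vesicle machinery, 21 were lowered (37.5%) and 1 was raised (1.79%, against 4.4% of all genes). *Rims1*, which docks vesicles at the active zone, fell from 266.5–325.8 CPM to 199.2–223.8 CPM (-0.46 ± 0.071, adjusted p = 0.00077), and *Syt12* (-0.62 ± 0.092), *Rims4* (-0.38 ± 0.061) and *Cplx2*, a clamp of vesicle fusion (-0.39 ± 0.067), were lowered. The raised call, *Syn3* (0.35 ± 0.098, adjusted p = 0.0312), had overlapping groups, lies over *Timp3* on the genome, and turned to -0.038 in the counts of 1 strand. The raised vesicle count was 0 with the series as a covariate and without WT-70, WT-220, 154Q-69 or 154Q-75, and 2 with DESeq2.

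Of 65 potassium channel genes, 23 were lowered (35.4%, against 6.71% of all genes) and none was raised. Besides *Kcnc1*, they included *Kcnip3*, a calcium-binding partner of Kv4 channels (-0.62 ± 0.088), *Kcnma1*, the large-conductance calcium-activated channel (-0.32 ± 0.049), and *Kcnk4*, a background channel (-0.72 ± 0.112). Sodium and HCN channels moved in both directions, with 4 raised (*Scn3a*, *Hcn3*, *Scn3b* and *Scn2a*) and 2 lowered of 14. These shares were 28.6% raised and 14.3% lowered, against 4.4% and 6.71% of all genes. In this list 2 were raised without 154Q-75, and 1 was raised and 1 lowered with the series as a covariate. *Scn4b*, the beta subunit of resurgent current, fell from 99.4, 55.1, 75.8 and 92.6 CPM to 23.9, 24.01, 24.8 and 36.98 CPM (-1.55 ± 0.277, adjusted p = 0.00206). Among 18 calcium channel genes, *Cacna1b* (0.30 ± 0.066) and *Cacna1c* (0.23 ± 0.059) were raised, and 4 were lowered, such as *Cacna2d3* (-0.37 ± 0.074) and *Cacna1i* (-0.39 ± 0.085). The raised share was 11.1% and the lowered share 22.2%, against 4.4% and 6.71% of all genes. The raised count of this list was 1 without WT-220 or 154Q-69, and 0 with the series as a covariate.

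Calmodulin and calcium signalling genes were lowered in 22 of 47 cases (46.8%) and raised in 2 (4.26%, against 4.4% of all genes). *Camk2n1*, an inhibitor of CaMKII, fell from 3209, 2348, 2737 and 2707 CPM to 1400, 1565, 1407 and 1560 CPM (-0.89 ± 0.081, adjusted p = 1.02e-05). *Itpka*, a kinase of inositol trisphosphate in spines, fell from 197.4–282.2 CPM to 115.6–141.0 CPM (-0.91 ± 0.093, adjusted p = 3.13e-05), and *Camkk2* was lowered (-0.69 ± 0.104). The 2 raised genes were *Pnck*, a CaM kinase of neurons, from 51.5–72.2 CPM to 94.0–109.3 CPM (0.70 ± 0.102, adjusted p = 0.000443), and *Camk2n2*, the paralog of *Camk2n1* (0.28 ± 0.057). With the series as a covariate, 12 potassium channel, 10 vesicle, 6 scaffold and 11 calmodulin genes were lowered.

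Lingo and Nogo receptor genes, which restrain axon growth and myelination, were lowered in 7 of 12 cases (58.3%, against 6.71% of all genes), and all 12 had a log2 fold change below 0. Besides *Lingo1* (516.5, 478.0, 490.3 and 485.3 CPM in WT, 306.0, 310.9, 277.4 and 320.1 CPM in 154Q cortex), *Rtn4r*, the Nogo receptor, was lowered from 91.8–117.2 CPM to 63.6–70.8 CPM (-0.59 ± 0.07, adjusted p = 9.19e-05), as was *Lingo3* (-0.72 ± 0.091). The count was 4 without WT-220, WT-221, 154Q-69 or 154Q-71 and 3 with the series as a covariate. Of 62 semaphorin, ephrin and receptor genes, 4 were raised (6.45%, against 4.4% of all genes), with *Slit1*, a repellent of growing axons, at 0.50 ± 0.088, and 7 were lowered (11.3%, against 6.71%), with *Sema7a* at -0.72 ± 0.092. The counts were 1 raised and 3 lowered with the series as a covariate and 7 raised with DESeq2. The non-clustered protocadherins, adhesion proteins of developing circuits, were the list with the highest share of raised genes: 5 of 11 were raised (45.5%, against 4.4% of all genes), and none was lowered. Like the Lingo list, this list was chosen with earlier results of these data known, so its rank is no test. *Pcdh11x* rose from 15.1–18.8 CPM to 24.8–26.1 CPM (0.58 ± 0.069, adjusted p = 9.35e-05), followed by *Pcdh8* (0.34 ± 0.092), *Pcdh19* (0.31 ± 0.081) and *Pcdh10* (0.29 ± 0.085). The count was 1 without 154Q-69 and with the series as a covariate, 2 without WT-77, WT-220 or WT-221, and 3 without WT-70 or 154Q-71; 1 was lowered without WT-221 or 154Q-69 and with DESeq2. Of 35 chromatin factors, 5 were raised (14.3%, against 4.4% of all genes) and 2 lowered (5.71%, against 6.71%). Among the raised was *Chd3* of the NuRD complex (638.2 to 709.7 CPM in WT, 781.0 to 962.6 CPM in 154Q cortex, 0.39 ± 0.067). Without single libraries 2 to 5 were raised and 0 to 2 lowered, the fewest in both directions without WT-220 or WT-221. With the series as a covariate 2 were raised and 0 lowered.

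Oxidative phosphorylation and ribosomal protein genes held no DEGs in the main fit, while other metabolic and stress lists did. None of 76 nuclear-encoded subunits of oxidative phosphorylation and none of 77 cytosolic ribosomal proteins was called by edgeR, with medians of -0.04 and 0.01. DESeq2 called 0 in either list, and 6 and 1 had an unadjusted p under 0.05. Without 154Q-76, 2 oxidative phosphorylation genes were lowered, and without WT-77 1 was raised. Of 23 genes of cholesterol synthesis, 7 were lowered (30.4%, against 6.71% of all genes), each by a little: *Hmgcs1*, at the entry to the pathway, fell from 212.3–246.6 CPM to 169.9–190.7 CPM (-0.34 ± 0.055, adjusted p = 0.000974), and *Cyp51* (-0.28 ± 0.04) and *Idi1* (-0.37 ± 0.058) were lowered. With WT-70 and WT-77 alone as WT (the lower series) 0 of this list were lowered, and 328 of all genes were DEGs. Of 21 glycolysis genes, 2 were raised (9.52%, against 4.4% of all genes) and 2 lowered (9.52%, against 6.71%). With the series as a covariate 0 were raised and 1 lowered. In this list 1 was raised without WT-70, WT-220, WT-221, 154Q-69, 154Q-71, 154Q-75, 154Q-AXH-207 or 154Q-AXH-209. Of 28 chaperones, 1 was raised (3.57%, against 4.4% of all genes), *Hsp90ab1* (0.23 ± 0.055). In this list 3 were lowered (10.7%, against 6.71%), *Hspa1b*, the inducible Hsp70, by the most (-1.16 ± 0.192). Of 22 genes of the unfolded protein and integrated stress response, 3 were lowered (13.6%, against 6.71% of all genes), *Ddit4l*, *Atf4* (-0.32 ± 0.056) and *Atf6* (-0.46 ± 0.088). *Cdkn1a*, a cell cycle inhibitor and target of glucocorticoids and p53, fell from 29.5–36.1 CPM to 11.1–16.5 CPM (-1.29 ± 0.116, adjusted p = 9.37e-06). It was 1 of 3 of 15 glucocorticoid-induced genes that were lowered (20%, against 6.71% of all genes). Without 154Q-75 the lowered counts were 6 chaperones, 7 glucocorticoid-induced and 5 stress response genes. The raised chaperone count was 0 without WT-221 and with the series as a covariate, and 2 without 154Q-71. Of 25 interferon-stimulated genes, *Irf7* was raised (0.46 ± 0.132), and this share of 4% was near the 4.4% of all genes. *Irf7* kept its call in 11 of 24 alternative fits, and lost it with the series as a covariate and without WT-77, WT-220, WT-221 or any 1 of the 4 154Q libraries.

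Genes that mark neighbouring tissues were also compared, and their levels can differ with the dissection or with the genotype. The summed level of 12 choroid plexus genes ranged from 96.7 to 945.8 CPM in WT and from 35.9 to 2447 CPM in 154Q cortex, and none was called by edgeR or DESeq2, or had an unadjusted p under 0.05. *Ttr*, which marks this tissue, was at 839.8, 76.3, 192.7 and 842.7 CPM in WT and 402.6, 49.9, 2200 and 26.4 CPM in 154Q cortex. With *Ttr* as a covariate, a fit added after these values were seen, 1976 genes were called, 1862 of them also without it. Of 16 striatal genes 2 were lowered (12.5%, against 6.71% of all genes), *Ppp1r1b* (-0.95 ± 0.175) and *Penk* (-0.96 ± 0.191). Their list had a summed level of 440.6 to 527.2 CPM in WT and 408.8 to 459.8 CPM in 154Q cortex. Of 12 hippocampal genes 2 were lowered (16.7%, against 6.71% of all genes), *Cabp7* (-1.23 ± 0.245) and *C1ql2* (-1.65 ± 0.398), at a summed 385.1 to 457.6 and 347.4 to 361.6 CPM. Of 9 thalamic genes 2 were lowered (22.2%, against 6.71% of all genes), *Rgs16* (-0.96 ± 0.156) and *Tnnt1* (-0.92 ± 0.244), and 1 was lowered without WT-70, 154Q-69 or 154Q-71. Of 6 genes of the olfactory bulb 1 was raised (16.7%, against 4.4% of all genes), *Cdhr1* (0.77 ± 0.226), but not without WT-70, WT-220, WT-221, 154Q-69, 154Q-71 or 154Q-AXH-209. The counts with the series as a covariate were 1 striatal and 1 thalamic gene lowered and 0 of the olfactory bulb raised; 1 hippocampal gene was raised without WT-70. Cortical neurons also express *Ppp1r1b*, *Penk* and *Cabp7*. The part of the dissection in these results was not tested.

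The cortical effect was then set against the mean of the effects in cerebellum, brainstem, hippocampus and striatum, in 1 fit of the 40 WT and 154Q libraries. Of 23359 genes tested, 23 differed (0.0985%), 3 with a higher and 20 with a lower change in cortex, and all 23 were also DEGs in cortex. *Pdp1* had the lowest p: its log2 fold change in this fit was -1.004 ± 0.089 in cortex, 0.04 ± 0.088 in cerebellum, -0.03 ± 0.088 in brainstem, -0.15 ± 0.088 in hippocampus and -1.19 ± 0.089 in striatum (difference -0.67 ± 0.099, adjusted p = 0.00177). *Onecut2* rose by 2.42 ± 0.271 in cortex, 1.08 ± 0.197 in hippocampus and 1.08 ± 0.22 in striatum, with 0.15 and -0.09 in cerebellum and brainstem (difference 1.87 ± 0.293, adjusted p = 0.00288). *Plk5* changed by -2.71 in cortex, -2.68 in striatum and -2.41 in hippocampus, against -0.99 in cerebellum and -0.22 in brainstem (difference -1.13 ± 0.194, adjusted p = 0.00771). *Fam3c*, a secreted factor, changed by -0.44 ± 0.068 in cortex and -0.11 ± 0.068 in striatum (difference -0.47 ± 0.076, adjusted p = 0.00288).

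Most of these genes changed by about as much in striatum as in cortex. In striatum all 23 had the sign of cortex, and 16 had at least 75% of the cortical log2 fold change; in hippocampus, cerebellum and brainstem 1, 0 and 0 genes did. The median absolute log2 fold change of the 23 was 1.09 in cortex, 1.08 in striatum, 0.26 in hippocampus, 0.17 in cerebellum and 0.06 in brainstem. Since striatum is part of the mean they were tested against, the test does not separate cortex from striatum. The number of genes depended on single cortical libraries: it was 5 without 154Q-69, 9 without 154Q-71, 10 without WT-221, 12 without 154Q-75, 14 without WT-70 and 21 without 154Q-76.

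**Figure D4:**
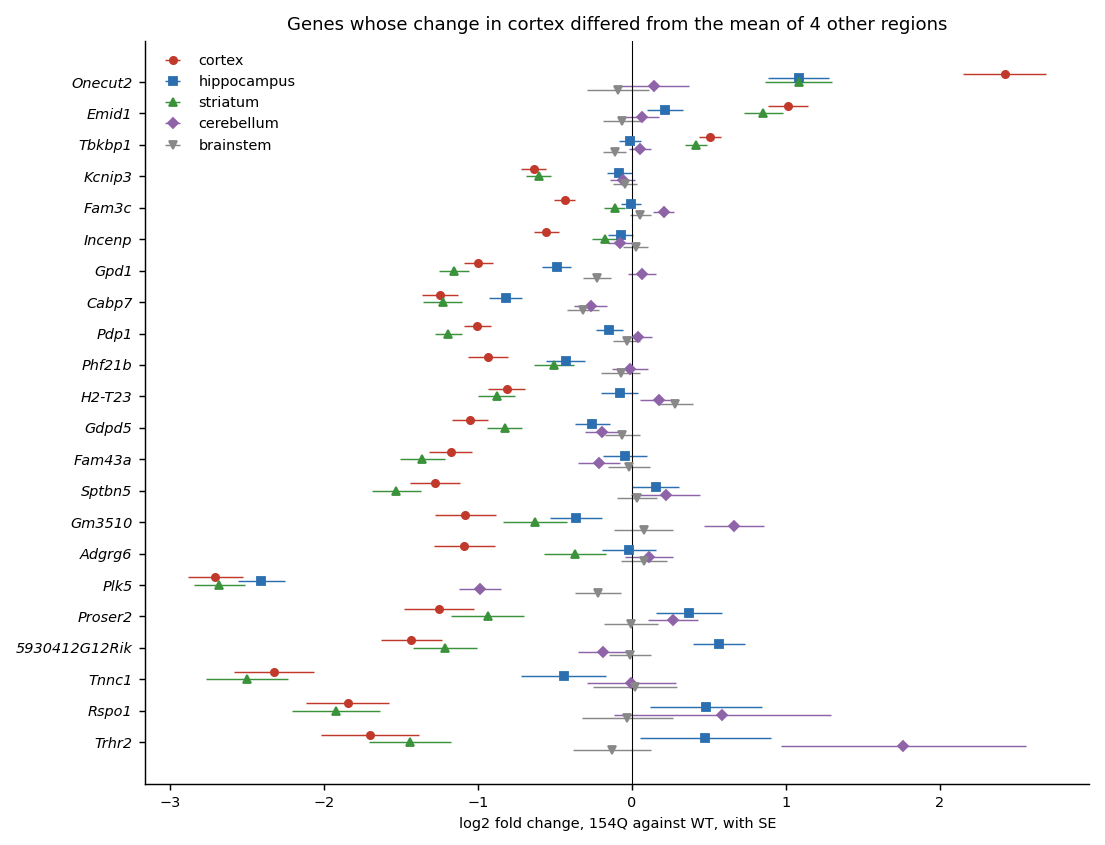
Log2 fold change of 154Q against WT, with SE, in each of 5 regions (horizontal axis) for 22 of the 23 genes whose cortical change differed from the mean of the other regions. Striatum (green) lies near cortex (red) for most genes, for example *Pdp1* at -1.19 and -1.004, and brainstem lies near 0 for most genes; cerebellum does too for most, but *Plk5* is at -0.99 there and *Trhr2* at 1.76.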

How the data were processed

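PolyA RNA was made into libraries and sequenced in pairs. Per the labels, read ends were cut with Trimmomatic 0.36 and mapping to GRCm38.p6 was by STAR 2.7.2d, from which the authors deposited counts of read pairs per gene, raw and without normalization; DESeq2 1.28.1 is also named. The column without regard to strand was used, since 50.06% to 50.11% of stranded counts fell on the first strand; reads of overlapping or antisense genes therefore cannot be told apart. Summary lines and a line for a transgene (at most 7 counts in a cortical library) were left out, leaving 54232 genes, of which 54165 had a position in GENCODE M21.

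The 12 cortical libraries were fitted in edgeR 4.0.16 (R 4.3.3; filterByExpr, TMM, glmQLFit, glmQLFTest), with the contrast of 154Q with WT and Benjamini-Hochberg adjustment over 18610 genes; glmTreat tested folds of 1.1, 1.2 and 1.5. Errors of log2 fold changes are SE. DESeq2 1.42.0 and other alternatives are given below. The code was tested on simulated data. Named genes are those called with a mean of at least 1 CPM and groups that do not overlap, 12 in each direction by lowest p and 8 by largest change, up to 4 called members in each direction of a described list, defining markers, *Atxn1* and its partners, and leading genes of the region contrast; not all are printed, and a few genes of these lists are not reported here. *Scn2a*, *Spred3*, *Spry2*, *Npy*, *Cck* and *Crh* are named for counts they complete. *Slc32a1*, *Etv4* and *Spry4* are named as list members that were not called. The members and gene lists were chosen with earlier results of these data known. WT and 154Q mice share no numbers, so they could not be paired. By the labels, the same mouse gave several regions, though the cortical library of WT-221 went against its other regions. Deviations of cortex from the group mean correlated with those of another region of the same labelled mouse at a median r of 0.0456 (n = 32 pairs, from -0.078 to 0.299), against 0.00297 for other mice. Litters and batches are not given in the sources used here.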

Additional observations from a re-analysis of the deposited data

Results flagged for a closer look

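In each group of 4 cortical libraries, the values of a named gene were examined for a library far from the other 3, which chance alone gives in about 1 in 20 groups. Since 176 called named genes and others not called were examined in both groups, chance alone gives many such values. Such values were 142.6 CPM of *Dock9* and 3.20 CPM of *Tnnt1* in WT-70, and 1.55 CPM of *Twist1* in WT-221. In 154Q-69 they were 4.33 CPM of *Rgs16*, 155.6 CPM of *Cacnb1*, 57.6 CPM of *Plxnd1*, 79.8 CPM of *Msmo1* and 146.2 CPM of *Gad2*. In 154Q-71 they were 41.8 CPM of *Sema6c* and 189.3 CPM of *Dnajb5*. In 154Q-75 they were 10.1 CPM of *Tal1* and 54.2 CPM of *Ppp1r1b*, and in 154Q-76 91.4 CPM of *S100b* and 37.0 CPM of *Scn4b*. *Xist* stood apart at 470.0 CPM in WT-221 and 448.2 CPM in 154Q-75, and *Ddx3y*, on the Y chromosome, at 0.70 CPM in 154Q-75. WT-221 held as little *Ddx3y* (0.90 CPM), although this value was not flagged.

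The change in cortex differed from the mean of the other 4 regions (edgeR interaction test) by a log2 fold change of 1.87 in *Onecut2*, 0.75 in *Emid1* (adjusted p = 0.0159), 0.42 in *Tbkbp1* (adjusted p = 0.0159), -1.13 in *Plk5*, -0.67 in *Pdp1*, -0.47 in *Fam3c* and -1.22 in *5930412G12Rik* (adjusted p = 0.011).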

How the results depend on the processing

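Of 176 named genes called in cortex, all kept their direction under every alternative but *Syn3*, whose log2 fold change was -0.038 in the counts of 1 strand; 176 stayed called with DESeq2, DESeq2 size factors or *Xist* as a covariate, 169 without 154Q-76, 122 with the number series as a covariate and 76 within the lower series (WT-70 and WT-77 against the 154Q libraries). The number of DEGs was 797 with the series as a covariate (195 raised, 602 lowered) and 328 within the lower series (45 raised, 283 lowered). Series and genotype can be told apart only through the 2 WT mice of each series. Within the lower series 0 genes were lowered in the astrocyte, excitatory neuron, deep layer and cholesterol synthesis lists. The same held for the RAS and ERK, stress-activated MAPK and calcium channel lists. In that fit 7 neuropeptide, 6 calmodulin and 5 potassium channel genes were lowered. Leaving out each cortical library gave 1389 to 2051 DEGs, and 275 to 396 genes past a fold of 1.2; 885 passed 1.1 and 79 passed 1.5. DEGs were 1495 with only the 8 libraries (494 raised, 1001 lowered), 1393 without 154Q-76 and WT-221, 2333 with 154Q-76 and 154Q-AXH-207 exchanged, and 2505 with DESeq2. The region contrast called 24 genes with the mouse as a replicate block (20 of the 23 among them), 36 without the hippocampal library of 154Q-76, which held both *Xist* and *Ddx3y*, 6 without the cortical libraries 154Q-76 and WT-221, 64 with DESeq2, and 5 to 23 when each cortical library was left out. The causes were not tested.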
